A study of Mus musculus with 9 samples.

Results

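The genes described here are the FOXO transcription factors Foxo1, Foxo3 and Foxo4, the muscle ubiquitin ligase genes Fbxo32, Trim63, Trim54, Trim55 and Fbxo30, the transcriptional co-regulator Cited2 and the sestrin Sesn3. They were taken by their symbols from the deposited table of gene counts, 10 of its 55401 genes, and all 10 were among the 16762 genes with enough reads to be tested. The study sequenced poly(A)-enriched RNA of primary neonatal mouse ventricular myocytes from wild-type (WT) C57BL/6J pups, 1 day old. There were 3 groups of 3 libraries: control, hypoxia and hypoxia + rSRGN. Control cultures stayed under normoxia in complete medium, DMEM with 10% FBS. Cultures of both hypoxic groups were moved into DMEM lacking glucose and serum and held for 6 h in a sealed AnaeroPack chamber, and in hypoxia + rSRGN recombinant SRGN (serglycin, a proteoglycan) was in the medium during that time. Low oxygen and the change of medium came together, so they cannot be told apart against control. The labels give no batch and do not say whether the replicates came from separate isolations, so the p-values measure the spread between these libraries.

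FOXO factors switch on genes of stress resistance, autophagy and protein breakdown when insulin or growth factor signalling is low; AKT phosphorylates them and 14-3-3 proteins then hold them in the cytoplasm. In striated muscle their known targets include Fbxo32, which encodes atrogin-1, the substrate-binding F-box part of an SCF ubiquitin ligase, and Trim63, which encodes MuRF1, a RING-finger ligase of the sarcomere. Both are classic markers of muscle wasting, and in the heart they take part in the turnover of contractile proteins.

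The libraries held between 16583985 and 22781557 counts. Levels are given as CPM, counts divided by the TMM-scaled library size and multiplied by 1e6, as values of single libraries or as mean ± SD with n = 3. The label of ventricular myocytes was checked against 12 cardiomyocyte marker genes, all of which were detected. Together they held 48732, 57117 and 60104 CPM in the control libraries, 6329, 5965 and 4089 in hypoxia and 8760, 8147 and 8260 in hypoxia + rSRGN; Myh6 was the most abundant in control and hypoxia + rSRGN and Tnnt2 in hypoxia. The hypoxic cultures thus carried far less of these transcripts than control, and hypoxia library 3 the least. All 12 were called lower in hypoxia than in control (median log2 difference -3.70, against 0.054 over all tested genes), and 11 of 12 were called higher in hypoxia + rSRGN than in hypoxia (median 0.78, against -0.029); without hypoxia library 3, the lowest in these markers, 6 of 12 were. In bulk samples, fewer cells of a type and less RNA per cell cannot be told apart.

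Markers of other cells were present too. The 8 fibroblast markers, led by Col1a1, summed to 8657, 9909 and 10243 CPM in control, 19890, 17099 and 19206 in hypoxia and 18917, 19478 and 19148 in hypoxia + rSRGN, and 6 of 8 were called higher in hypoxia than in control. The 6 macrophage markers, led by Cd68 in control and Csf1r in both hypoxic groups, summed to 36.2, 43.1 and 44.2 CPM in control, 10.6, 12.25 and 10.8 in hypoxia and 13.2, 15.03 and 11.6 in hypoxia + rSRGN, and all 6 were called lower in hypoxia. Some of their defining genes were near 0 there: Adgre1 had 0, 6 and 0 counts in the hypoxia libraries and C1qa had 0, 0 and 1. The 6 endothelial markers, led by Cdh5 in control and Tek in both hypoxic groups, summed to 65.1, 82.1 and 91.1 CPM in control, 51.5, 42.1 and 43.0 in hypoxia and 52.5, 56.2 and 43.0 in hypoxia + rSRGN, with 5 of 6 called lower in hypoxia. The 6 smooth muscle and pericyte markers, led by Cspg4 in control and Pdgfrb in both hypoxic groups, summed to 437, 524 and 495 CPM in control, 549, 535 and 532 in hypoxia and 689, 726 and 689.6 in hypoxia + rSRGN, with 2 of 6 called higher in hypoxia. Of the 8 skeletal muscle markers, 4 had enough reads to be tested; Myod1 had 0 counts in all 9 libraries and Myh4 in 8 of 9, while Ckm, which heart muscle also expresses, carried most of the sum of 707, 799 and 832 CPM in control, 89.2, 67.6 and 55.4 in hypoxia and 128, 126 and 132 in hypoxia + rSRGN. Calls here follow the rule given below, by which 26.4% of all tested genes were called higher and 25.1% lower in hypoxia against control. In hypoxia + rSRGN against hypoxia 2.27% were called higher. The 2 of 6 smooth muscle and pericyte markers called higher were thus near the share of all tested genes. What part the shifts in marker levels have in the results below was not tested.

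A gene was called where edgeR's quasi-likelihood test gave a Benjamini-Hochberg adjusted p under 0.05 and the fold change was at least 1.5; every adjusted p below comes from that test over all tested genes. Hypoxia against control, which addresses how transcripts differ after 6 h in low oxygen without glucose and serum, called 8 of the 10 genes, where 51.6% of all tested genes were called. Of these, 7 were lower (Foxo3, Foxo4, Fbxo32, Trim63, Trim54, Trim55 and Sesn3; 25.1% of all tested genes were called lower) and 1, Cited2, was higher (26.4% of all). The median over the 10 genes was -1.24 on the log2 scale, against 0.054 over all tested genes. Hypoxia + rSRGN against hypoxia, which addresses what the added protein changes, called 2 of 10, Trim54 and Trim55, both higher. Over all tested genes 3.13% were called in that comparison, 2.27% higher and 0.859% lower, and the median of the 10 genes was 0.35. Hypoxia + rSRGN against control called 9 of 10, where 48.8% of all tested genes were called: the same 7 genes were lower (24.7% of all) and Fbxo30 and Cited2 were higher (24.1% of all). The 3 comparisons share their libraries pairwise, so their values are set side by side and not counted as separate evidence.

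**Figure D1:**
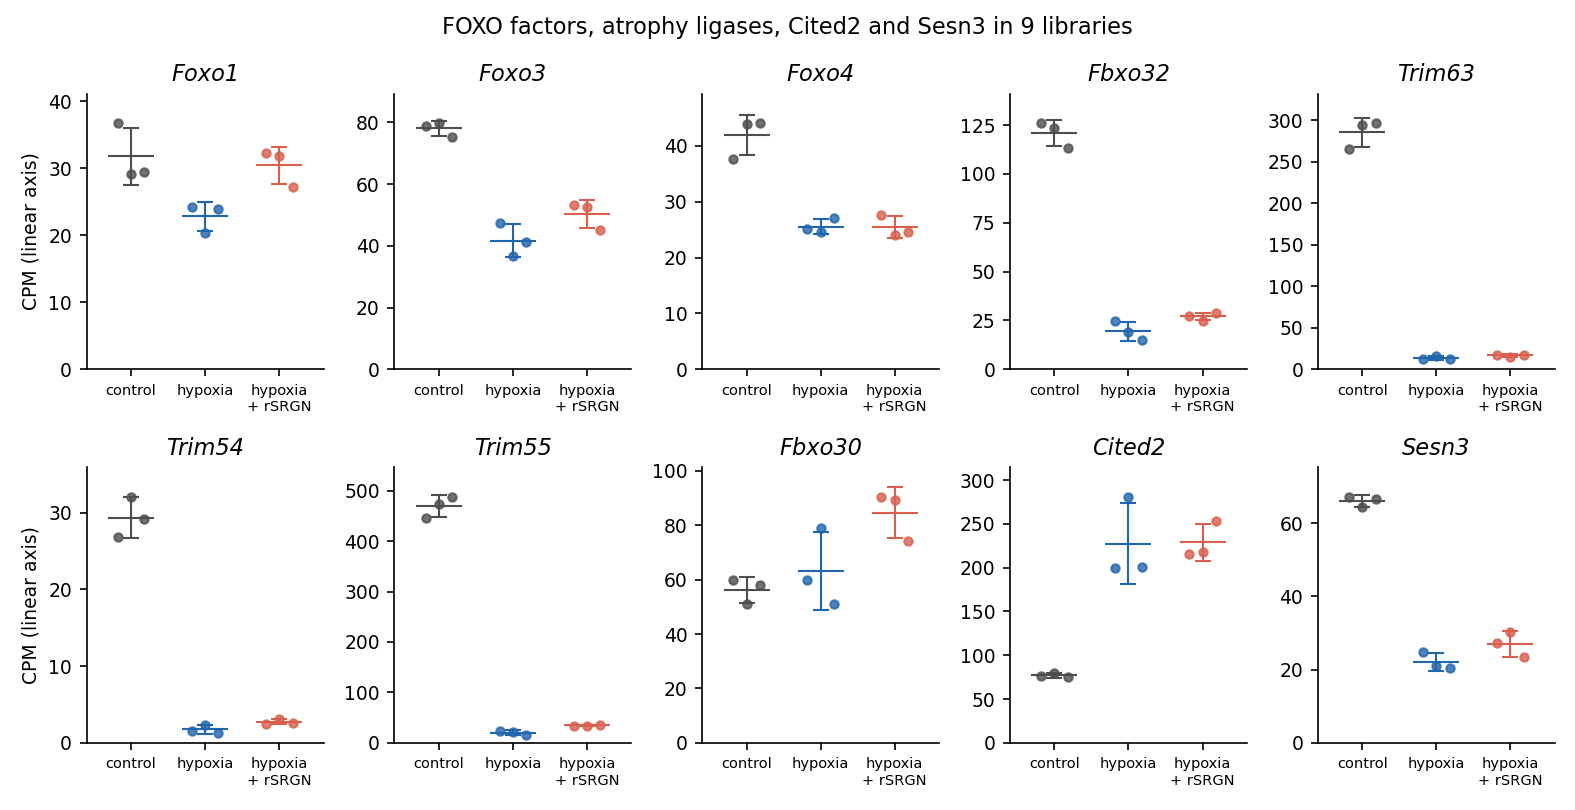
CPM of the 10 genes in each of the 9 libraries, on linear axes that start at 0; points are libraries and the bars with caps are the mean ± SD of 3. Trim63, Trim54, Trim55 and Fbxo32 drop far below control in both hypoxic groups, Cited2 lies above control in all 6 hypoxic libraries, and the Fbxo30 libraries of control and hypoxia overlap.

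Foxo3 (ENSMUSG00000048756.11, chr10:42181841-42276755 of GRCm38, minus strand), a FOXO factor central to the atrophy programme of muscle, was at 79.0, 79.8 and 75.4 CPM in the control libraries, 47.3, 36.7 and 41.2 in hypoxia and 53.1, 52.7 and 45.2 in hypoxia + rSRGN. All control libraries lay above all 6 hypoxic ones, and the 2 hypoxic groups overlapped. Against control it was 1.87-fold lower in hypoxia (log2 difference -0.90 ± 0.091 SE, edgeR adjusted p = 1.05e-08) and 1.55-fold lower in hypoxia + rSRGN (-0.63 ± 0.090 SE); the latter came to -0.57, under the fold limit, without hypoxia + rSRGN library 3. Between the hypoxic groups the difference was 0.27 ± 0.093 SE (edgeR adjusted p = 0.0501), which was not called.

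Foxo4 (ENSMUSG00000042903.8, chrX:101254528-101260873, plus strand), an X-linked member of the family, was at 37.7, 43.8 and 44.1 CPM in control, 25.0, 24.5 and 27.0 in hypoxia and 27.6, 24.1 and 24.5 in hypoxia + rSRGN. The hypoxic groups lay on top of each other and below every control library. The log2 difference from control was -0.71 ± 0.098 SE in hypoxia and -0.72 ± 0.098 SE in hypoxia + rSRGN, 1.64-fold and 1.65-fold lower (edgeR adjusted p = 1.03e-06 and 9.42e-07). Between the hypoxic groups it was -0.0068 ± 0.10 SE, and the sign of this small value depended on the scaling and on single libraries.

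Foxo1 (ENSMUSG00000044167.6, chr3:52268336-52353221, plus strand), which besides its role in muscle governs insulin-responsive genes, was at 36.8, 29.1 and 29.4 CPM in control, 24.2, 20.3 and 23.98 in hypoxia and 32.3, 31.8 and 27.3 in hypoxia + rSRGN. The hypoxia libraries were lower than all others, while control and hypoxia + rSRGN overlapped. Hypoxia differed from control by -0.48 ± 0.11 SE on the log2 scale (edgeR adjusted p = 7.19e-04) and hypoxia + rSRGN from hypoxia by 0.41 ± 0.11 SE (edgeR adjusted p = 0.0153). Both passed the p threshold but, at 1.39-fold and 1.33-fold, not the fold limit, so neither was called. The difference between hypoxia + rSRGN and control was -0.062 ± 0.11 SE (edgeR adjusted p = 0.63). The antisense gene Gm20402 shares 674 bases, 7.78% of the exon length of Foxo1. Reads inside those bases cannot be told apart without strand, and Gm20402 itself was given 0 counts in all.

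Per kilobase of exon, which allows genes to be compared, the 3 FOXO factors summed to 26.0 ± 0.494 CPM per kb in control, 15.5 ± 1.08 in hypoxia and 17.5 ± 1.26 in hypoxia + rSRGN (SD, n = 3). Foxo4 held 46.2 ± 3.30% of the control sum, Foxo3 39.7 ± 1.31% and Foxo1 14.1 ± 2.18%. In hypoxia the shares were 47.4 ± 2.75%, 35.6 ± 2.54% and 17.03 ± 0.459%, and each overlapped its control values. In hypoxia + rSRGN Foxo1 held 20.0, 20.9 and 19.5%, above the 17.2, 16.5 and 17.4% of hypoxia and the 16.6, 12.7 and 13.1% of control. That share differed by 3.09 percentage points from hypoxia and 5.99 from control (exact permutation test, two-sided p = 0.1 for each, the smallest that 3 against 3 libraries can give). The share of Foxo4 differed between hypoxia + rSRGN and hypoxia by -5.603 points with no overlap (41.8 ± 2.15% against 47.4 ± 2.75%; exact permutation p = 0.1).

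Fbxo32 (ENSMUSG00000022358.7, chr15:58175879-58214932, minus strand), the atrogin-1 gene, was at 126, 123 and 113 CPM in the control libraries, 24.5, 19.2 and 14.8 in hypoxia and 27.3, 24.9 and 28.9 in hypoxia + rSRGN. Every control library stood several-fold above every hypoxic one, and the hypoxia + rSRGN libraries lay just above those of hypoxia. It was 6.17-fold lower in hypoxia than in control (log2 difference -2.63 ± 0.12 SE, edgeR adjusted p = 1.33e-14) and 4.48-fold lower in hypoxia + rSRGN (-2.16 ± 0.12 SE, edgeR adjusted p = 2.69e-13). Between the hypoxic groups it differed by 0.46 ± 0.12 SE (1.38-fold, edgeR adjusted p = 0.0135) and was not called; without hypoxia library 1 the difference was 0.66 and passed both limits (edgeR adjusted p = 4.43e-04, against 0.0135 with all libraries). The antisense gene Gm15943 shares 186 bases, 2.67% of the exon length of Fbxo32; reads inside those bases cannot be told apart without strand, and Gm15943 itself was given 122 counts over the 9 libraries.

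The MuRF genes encode RING-finger proteins of striated muscle. Trim63 (MuRF1; ENSMUSG00000028834.13, chr4:134315120-134329629, plus strand) was at 265, 294 and 296 CPM in control, 12.9, 16.1 and 12.3 in hypoxia and 17.4, 14.98 and 17.5 in hypoxia + rSRGN. The control libraries stood about 1 order of magnitude above all others, and the hypoxic groups overlapped. Trim63 was 20.8-fold lower in hypoxia (log2 difference -4.38 ± 0.10 SE, edgeR adjusted p = 3.75e-19), at place 148 of the 16762 tested genes from the lowest difference, and 17.2-fold lower in hypoxia + rSRGN (-4.10 ± 0.099 SE). Between the hypoxic groups the difference of 0.27 ± 0.11 SE was not called (edgeR adjusted p = 0.0835).

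Trim55 (MuRF2; ENSMUSG00000060913.6, chr3:19644474-19692421, plus strand), a partner of titin and microtubules during sarcomere assembly, was at 447, 473 and 488 CPM in control, 23.3, 21.96 and 15.6 in hypoxia and 34.0, 34.2 and 35.2 in hypoxia + rSRGN. None of the groups overlapped, and the hypoxia + rSRGN libraries lay close together. It was 23.1-fold lower in hypoxia than in control (-4.53 ± 0.11 SE, edgeR adjusted p = 6.3e-19) and 13.6-fold lower in hypoxia + rSRGN (-3.77 ± 0.10 SE). It was 1.70-fold higher in hypoxia + rSRGN than in hypoxia (0.76 ± 0.11 SE, edgeR adjusted p = 9.9e-05), at place 497 from the highest difference, and this call held in all 18 alternative fits.

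Trim54 (MuRF3; ENSMUSG00000062077.14, chr5:31116712-31137630, plus strand), which stabilises microtubules in muscle, was the least abundant of the family in reads, with 598, 711 and 603 counts in control, 29, 41 and 22 in hypoxia and 41, 64 and 50 in hypoxia + rSRGN. In CPM these were 26.9, 32.1 and 29.1, then 1.56, 2.37 and 1.27, then 2.44, 3.08 and 2.64. Control lay far above the rest, and the lowest hypoxia + rSRGN library only just above the highest of hypoxia. Trim54 was 16.9-fold lower in hypoxia (-4.08 ± 0.17 SE, edgeR adjusted p = 3.79e-15), 10.7-fold lower in hypoxia + rSRGN against control (-3.42 ± 0.16 SE) and 1.58-fold higher in hypoxia + rSRGN than in hypoxia (0.66 ± 0.22 SE, edgeR adjusted p = 0.0424). The last call rested on single libraries: it was lost without control library 2 or 3, hypoxia library 1 or 3 or any of the hypoxia + rSRGN libraries, with log2 differences of 0.49 to 0.73 and edgeR adjusted p-values of 0.0523 to 0.195. The antisense gene Gm15469 shares 382 bases, 26.6% of the exon length of Trim54; reads inside those bases cannot be told apart without strand, and Gm15469 itself was given 40 counts in all.

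Summed per kilobase, the 3 MuRF genes were at 297 ± 15.2 CPM per kb in control, 13.7 ± 2.33 in hypoxia and 20.7 ± 0.496 in hypoxia + rSRGN (SD, n = 3). Of that sum Trim55 held 59.4 ± 0.718% in control, 55.6 ± 4.55% in hypoxia and 62.6 ± 0.723% in hypoxia + rSRGN, where it was above both other groups without overlap, by 6.97 points against hypoxia and 3.21 against control (exact permutation p = 0.1 for each). Trim63 held 33.3, 34.0 and 33.8% in control, 31.6, 36.3 and 39.0% in hypoxia and 29.7, 26.0 and 29.0% in hypoxia + rSRGN, so the added protein went with a lower Trim63 share than either other group. That difference was -7.41 points against hypoxia and -5.50 against control (exact permutation p = 0.1 for each). Trim54 held 6.87 ± 0.423%, 8.72 ± 1.64% and 9.16 ± 1.25%, and lay above control in both hypoxic groups without overlap, by 1.85 and 2.29 points (exact permutation p = 0.1 for each).

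**Figure D2:**
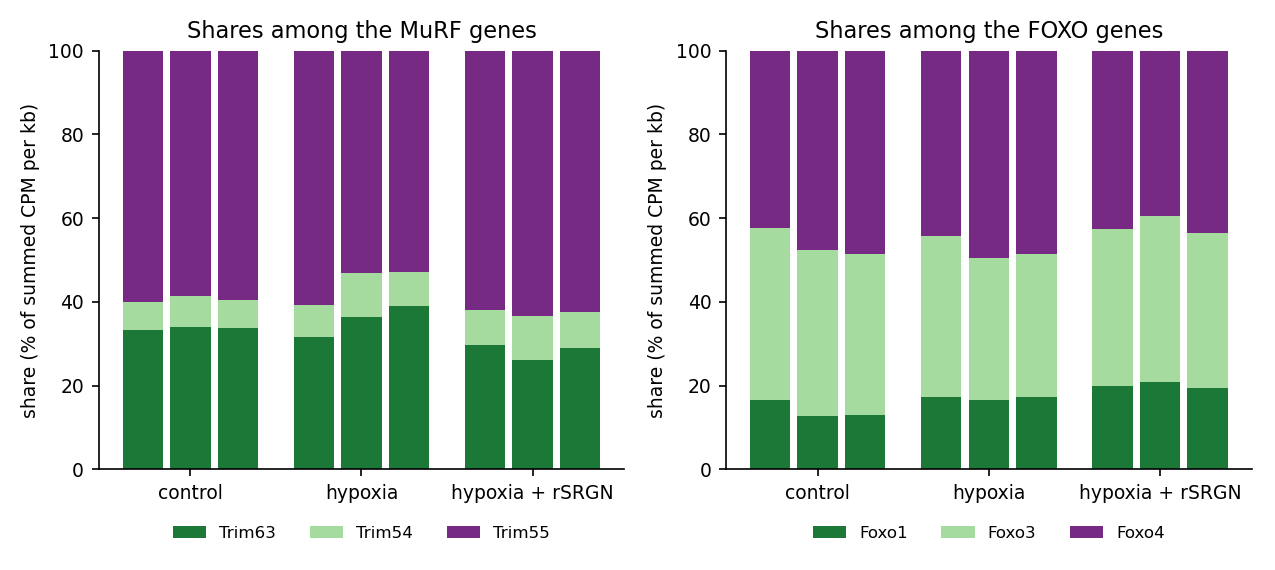
Shares of the MuRF genes (left) and the FOXO genes (right) in their summed CPM per kb, in percent, with 1 bar per library and the libraries ordered by group. Trim55 holds the most in the MuRF family in all 9 libraries, and the Foxo1 share is highest in hypoxia + rSRGN.

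Because these ligases are transcripts of muscle cells, their log2 CPM was also set against the mean log2 CPM of the 12 cardiomyocyte markers in the same library. Those markers were lower in hypoxia by unequal amounts. Tnnt2 had 193453, 216286 and 196163 counts in control and 33578, 34764 and 25809 in hypoxia. Myh7 had 20371, 21416 and 20602 in control and 749, 582 and 330 in hypoxia. A difference from the marker mean is therefore not a difference from each marker, which was not tested. On this scale Fbxo32 was at -4.44, -4.66 and -4.85 in control, -3.62, -3.75 and -3.60 in hypoxia and -4.04, -4.02 and -3.80 in hypoxia + rSRGN. Relative to the mean of the markers Fbxo32 was therefore higher in both hypoxic groups, by 0.99 and 0.69, although its CPM was lower. Trim63 was at -3.36, -3.41 and -3.47 in control, -4.55, -4.01 and -3.87 in hypoxia and -4.69, -4.75 and -4.52 in hypoxia + rSRGN, and so lay below control, with differences of -0.73 and -1.24. Trim55 was at -2.61, -2.72 and -2.74, then -3.70, -3.56 and -3.53, then -3.73, -3.56 and -3.52. It differed from control by -0.90 in hypoxia and -0.91 in hypoxia + rSRGN. For Fbxo32, Trim63 and Trim55 neither hypoxic group overlapped control (exact permutation p = 0.1, the smallest possible, for each). Trim54 differed from control by -0.40 in hypoxia, with overlap (exact permutation p = 0.2), and by -0.53 in hypoxia + rSRGN (p = 0.1, exact). Trim55, called higher in CPM between the hypoxic groups, had nearly equal values on this scale (difference -0.0066, exact permutation p = 0.9), and Trim54 differed by -0.13 (exact permutation p = 0.8); both signs turned when single libraries were left out. In the same comparison Fbxo32 differed by -0.30 with no overlap (exact permutation p = 0.1), opposite in sign to its CPM difference of 0.46, and Trim63 by -0.51 with overlap (exact permutation p = 0.2).

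**Figure D3:**
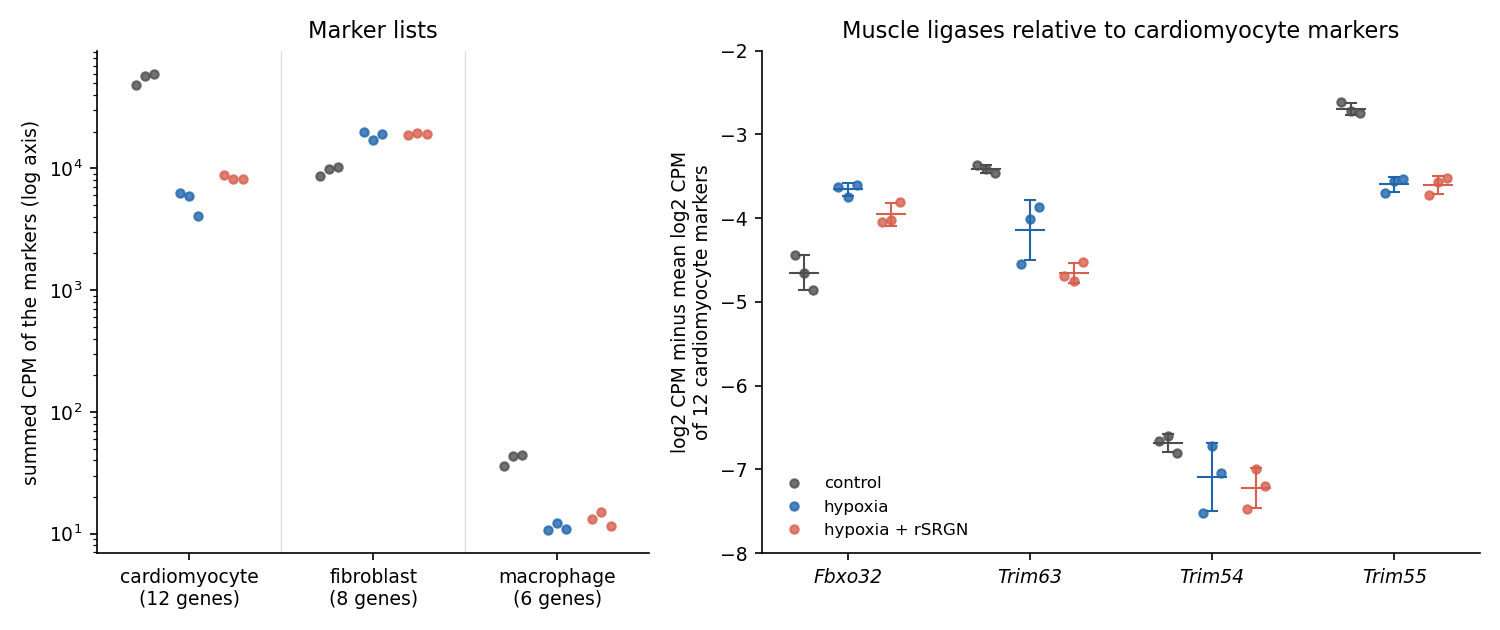
Left, summed CPM of 3 marker lists in each library on a log axis. Right, log2 CPM of the muscle ligase genes minus the mean log2 CPM of 12 cardiomyocyte markers, with points for libraries and bars for mean ± SD of 3; grey is control, blue hypoxia and red hypoxia + rSRGN. Fbxo32 lies higher in the hypoxic groups on this scale and Trim63 and Trim55 lower.

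Fbxo30 (ENSMUSG00000047648.13, chr10:11281330-11298052, plus strand) encodes the F-box protein MUSA1, a ligase component of muscle wasting that BMP signalling holds down. Unlike the other ligase genes it was not lower in hypoxia: it was at 59.9, 50.9 and 58.1 CPM in control, 59.7, 79.0 and 51.0 in hypoxia and 90.6, 89.4 and 74.1 in hypoxia + rSRGN. The hypoxia libraries spread widely and overlapped both other groups, while hypoxia + rSRGN lay wholly above control. Hypoxia against control gave 0.17 ± 0.12 SE (edgeR adjusted p = 0.209), and without hypoxia library 2 -0.025. Hypoxia + rSRGN was 1.503-fold above control (0.59 ± 0.12 SE, edgeR adjusted p = 1.25e-04), right at the fold limit, and fell short of it, at 0.51 to 0.55, without control library 2 or hypoxia + rSRGN library 1 or 2. Against hypoxia the difference was 0.42 ± 0.12 SE (1.34-fold, edgeR adjusted p = 0.0166), not called; without hypoxia library 2 it was 0.61 and passed both limits (edgeR adjusted p = 1.01e-04).

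Cited2 (ENSMUSG00000039910.10, chr10:17723218-17725674, plus strand, a single exon) encodes a co-regulator that competes with HIF-1α for the CH1 domain of CBP and p300. It was at 76.3, 79.7 and 74.9 CPM in control, 200.04, 281 and 201 in hypoxia and 216, 218 and 253 in hypoxia + rSRGN. All 6 hypoxic libraries stood well above control and overlapped each other. Cited2 was 2.96-fold higher in hypoxia (1.56 ± 0.11 SE, edgeR adjusted p = 1.06e-11) and 2.98-fold higher in hypoxia + rSRGN (1.57 ± 0.11 SE) than in control. Between the hypoxic groups the difference was 0.010 ± 0.10 SE (edgeR adjusted p = 0.964), of a sign that single libraries and scaling by library size alone turned.

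Sesn3 (ENSMUSG00000032009.8, chr9:14275067-14333101, plus strand), a FOXO target whose product restrains mTORC1 through the GATOR complexes, was at 67.3, 64.3 and 66.7 CPM in control, 24.8, 20.9 and 20.6 in hypoxia and 27.3, 30.4 and 23.4 in hypoxia + rSRGN. Control lay above every hypoxic library by a wide margin, and the hypoxic groups overlapped. It was 2.99-fold lower in hypoxia (-1.58 ± 0.10 SE, edgeR adjusted p = 5.77e-12) and 2.44-fold lower in hypoxia + rSRGN (-1.29 ± 0.10 SE). The difference between the hypoxic groups, 0.29 ± 0.11 SE, was not called (edgeR adjusted p = 0.0617).

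**Figure D4:**
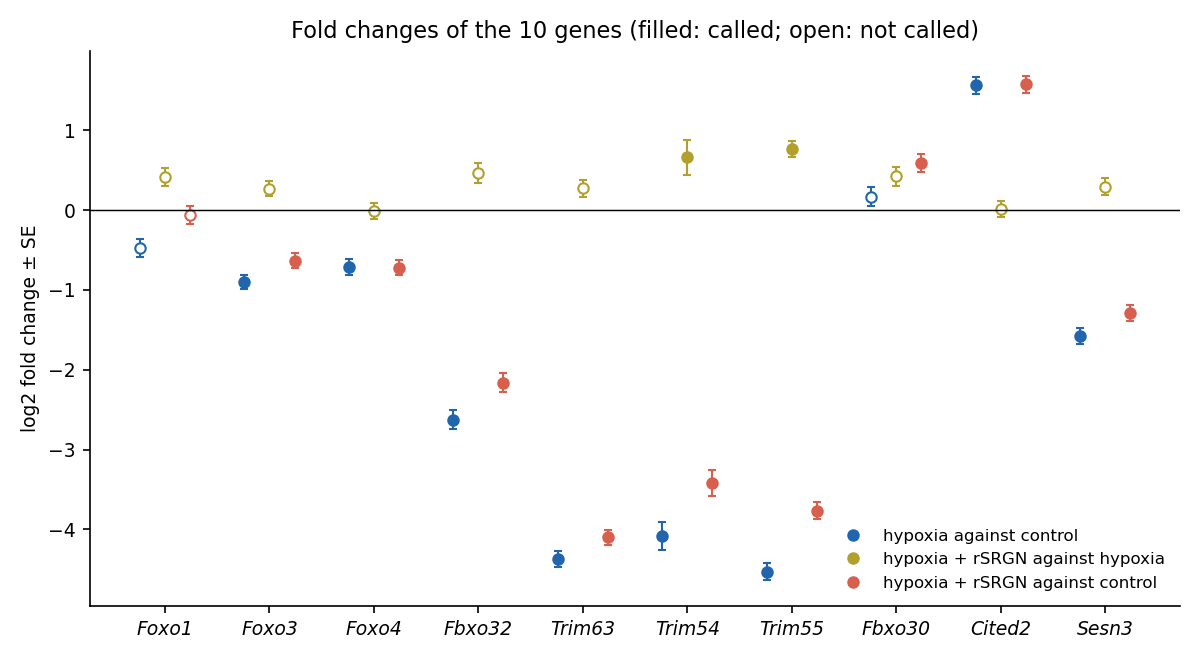
Log2 fold changes ± SE of the 10 genes from edgeR in the 3 comparisons; filled points passed both limits, open points did not. The largest differences are those of Trim55, Trim63 and Trim54 against control (-4.53, -4.38 and -4.08 in hypoxia), and among differences between the hypoxic groups those of Trim55 and Trim54 are filled.

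By level per kilobase, the order in control was Trim55 (177 ± 7.94 CPM per kb), Trim63 (100.3 ± 6.10), Cited2 (31.3 ± 0.991), Trim54 (20.5 ± 1.83), Fbxo32 (17.3 ± 0.971), Foxo4 (12.01 ± 1.04), Fbxo30 (10.8 ± 0.921), Foxo3 (10.3 ± 0.308), Sesn3 (4.33 ± 0.102) and Foxo1 (3.67 ± 0.499; SD, n = 3). Foxo4, Fbxo30 and Foxo3 overlapped their neighbours in that order, as did Sesn3 and Foxo1. Trim55 and Trim63 were at places 208 and 402 of all tested genes per kilobase in control. In hypoxia they were at places 5275 and 7088, and Cited2 (92.6 ± 18.96) led the order, before Fbxo30 (12.2 ± 2.75), Trim55 (7.62 ± 1.55), Foxo4 (7.32 ± 0.376), Foxo3 (5.51 ± 0.701), Trim63 (4.84 ± 0.715), Fbxo32 (2.80 ± 0.698), Foxo1 (2.64 ± 0.251), Sesn3 (1.45 ± 0.156) and Trim54 (1.21 ± 0.396). Neighbours that overlapped there were Trim55 and Foxo4, Foxo3 and Trim63, Fbxo32 and Foxo1, and Sesn3 and Trim54. Hypoxia + rSRGN had the same order but for its last places, Trim54 (1.90 ± 0.228) and Sesn3 (1.77 ± 0.230), which overlapped; Foxo4 and Foxo3 overlapped there as well, and Trim55 (12.97 ± 0.245) no longer overlapped Foxo4 (7.29 ± 0.558).

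Of 20 further FOXO target genes, 17 had enough reads to be tested. In hypoxia against control 9 were called lower and 4 higher, with a median log2 difference of -0.97. Over all tested genes 25.1% were called lower and 26.4% higher there (median 0.054), which applies to every list below. For hypoxia + rSRGN against control these shares were 24.7% and 24.1%, and against hypoxia 0.859% and 2.27%. Among the 17 the largest called difference in hypoxia against control was that of Depp1, a FOXO-induced regulator of autophagy. It was at -4.66 ± 0.31 SE (10.6 ± 1.60 CPM in control and 0.408 ± 0.205 in hypoxia, SD, n = 3). Bnip3, a mitophagy receptor also known as a HIF target, was at -2.14 ± 0.23 SE. Its control libraries spread widely (52.3 ± 23.8 CPM, against 11.9 ± 1.29 in hypoxia, SD, n = 3), without overlap. Insr, the insulin receptor, was at -2.03 ± 0.097 SE and Pdk4, a kinase that inhibits pyruvate dehydrogenase, at -2.03 ± 0.13 SE. In the other direction Gadd45a, a stress gene that takes part in muscle atrophy, was higher by 1.84 ± 0.12 SE, Klf2 by 1.23 ± 0.14 SE and Irs2, an adaptor of the insulin receptor, by 1.14 ± 0.089 SE. In hypoxia + rSRGN against control the counts were again 9 lower and 4 higher (median -1.24), and against hypoxia 1 of 17 was called, Pdk4, higher by 0.69 ± 0.14 SE (edgeR adjusted p = 0.00169; list median -0.0064). Pdk4 was under the fold limit without hypoxia library 3 (0.57) or hypoxia + rSRGN library 2 (0.55).

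Upstream of FOXO, 16 genes of PI3K, AKT, their kinases and 14-3-3 proteins were tested. In hypoxia 3 were called lower and 2 higher (median -0.17), where 25.1% and 26.4% of all tested genes were. Lower were Pdpk1, the kinase that activates AKT (-0.94 ± 0.091 SE), Pik3r1, a regulatory subunit of PI3K (-0.86 ± 0.072 SE), and Pik3ca, a catalytic one (-0.65 ± 0.083 SE). Higher were Sgk1, a kinase related to AKT that also phosphorylates FOXO3 (0.96 ± 0.12 SE), and the 14-3-3 gene Ywhaq (0.69 ± 0.069 SE). Akt1 and Akt2 differed by 0.31 and -0.16 and were not called. With rSRGN, 1 was lower and 2 higher than in control (median -0.049). Against hypoxia edgeR called 0 of 16 (median 0.14) and DESeq2 also 0, while 9 had an unadjusted p under 0.05. In that comparison 2790 of the 16762 tested genes had an edgeR adjusted p under 0.05 when no fold limit was set. The share of all tested genes at the unadjusted p was not counted, here or for the lists below. Counts at the unadjusted p are therefore not read as a result about any list.

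Among 13 enzymes and cofactors that modify FOXO proteins, 4 were called higher and 4 lower in hypoxia (median -0.13). Of all tested genes 26.4% were called higher and 25.1% lower in that comparison. Prkaa2, the AMPK α subunit of muscle, was lower by far, from 212 ± 9.43 to 16.02 ± 3.90 CPM (SD, n = 3; -3.72 ± 0.11 SE, edgeR adjusted p = 2.17e-17), while its counterpart Prkaa1 differed by -0.42 ± 0.12 SE and was not called, though it was without hypoxia library 2 (-0.64). The mitochondrial deacetylase Sirt3 was also lower (-1.38 ± 0.11 SE). The deacetylases Sirt1 (1.01 ± 0.11 SE) and Sirt2 (0.61 ± 0.077 SE) were higher, as were Skp2, the F-box protein that targets FOXO1 (0.97 ± 0.12 SE), and the acetyltransferase Crebbp (0.64 ± 0.074 SE). Without control library 1 Crebbp (0.57) and Sirt2 (0.56) were under the fold limit, as was Sirt2 without control library 3 (0.584) or hypoxia library 2 (0.56). With rSRGN, 4 were higher and 2 lower than in control (median -0.14), and against hypoxia Prkaa2 alone was called, higher by 0.70 ± 0.12 SE (edgeR adjusted p = 3.88e-04; list median 0.058); without hypoxia library 3 it was 0.56, under the fold limit.

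Of 13 other ubiquitin ligases of striated muscle, 8 were called lower and 1 higher in hypoxia (median -0.63). The differences were largest, among these 13, for Fbxo40 by -4.50 ± 0.14 SE, Asb2 by -4.08 ± 0.12 SE and Trim72, the membrane repair protein MG53, by -3.80 ± 0.14 SE, while Trim32 differed by -0.66 ± 0.095 SE. Mul1, a mitochondrial ligase, differed by -1.53 ± 0.10 SE, and Nedd4, expressed in many tissues, by -0.63 ± 0.075 SE (-0.577 and not called without hypoxia library 3). Wwp1 differed by -0.61 ± 0.083 SE and was not called without control library 3 (-0.566) or hypoxia library 3 (-0.578). Without hypoxia library 3, and also with scaling by library size alone, 6 of the 13 were called lower. Cblb, which targets IRS1 in unloaded muscle, was the higher one (0.68 ± 0.091 SE), but at 0.585 without hypoxia library 2 it was just under the fold limit. Hypoxia + rSRGN against control had 6 lower and 1 higher (median -0.52). Against hypoxia 3 were called, all higher (median 0.29): Fbxo40 by 1.28 ± 0.15 SE, Asb2 by 0.76 ± 0.12 SE and Trim72 by 0.64 ± 0.15 SE; without hypoxia library 3 Trim72 was at 0.42, under the fold limit. The cardiomyocyte markers were higher in the same comparison, as given above.

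The SCF core, the scaffold that holds F-box proteins such as atrogin-1, had 0 of 3 genes called by edgeR in hypoxia against control, where Cul1 differed by -0.52, Rbx1 by 0.19 and Skp1a by -0.58; DESeq2 called 1 lower, and 3 had an unadjusted p under 0.05. In hypoxia + rSRGN against hypoxia edgeR and DESeq2 called 0 of 3, and 1 had an unadjusted p under 0.05. Skp1a was called lower in hypoxia + rSRGN against control (-0.67 ± 0.075 SE). Of 8 other genes that rise in wasting muscle, 4 were called higher in hypoxia (median 0.68); edgeR and DESeq2 called 0 lower, and 1, Usp14, was lower at an unadjusted p under 0.05. Among them were the lysosomal protease Ctsl (1.32 ± 0.072 SE, from 543 ± 6.50 to 1360.4 ± 82.3 CPM, SD, n = 3), the metallothionein Mt1 (1.15 ± 0.092 SE) and the polyubiquitin gene Ubb (1.11 ± 0.073 SE). The proteasome genes Psmc4 and Psmd11 differed by 0.39 and 0.29 and were not called. In hypoxia + rSRGN 4 were again higher than in control (median 0.58), and against hypoxia edgeR called 0 of 8 (median -0.076), DESeq2 also 0, and 3 had an unadjusted p under 0.05.

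Of 15 other regulators of the atrophy ligases, 14 were tested, 5 called lower and 1 higher in hypoxia (median -0.28). The 5 became 4 to 6 in the 18 alternative fits, where Mef2a (-0.575 with all libraries, not called) was called lower without control library 2 or 3, hypoxia library 2 or hypoxia + rSRGN library 3 (-0.62, -0.63, -0.73 and -0.59). Myocd, the cardiac and smooth muscle co-activator of SRF, was lower, at -3.60 ± 0.12 SE on the log2 scale, and Mef2c by -1.20 ± 0.088 SE. Nr3c1, the glucocorticoid receptor, which acts on Trim63 and Fbxo32, was at -0.73 ± 0.077 SE, Mef2d at -0.68 ± 0.075 SE and Acvr2b, the activin and myostatin receptor, at -0.90 ± 0.35 SE with 1.67 ± 0.847 CPM in hypoxia (SD, n = 3), a call that was lost without control library 1 or 2 or hypoxia library 2 or 3 (-0.84, -0.77, -0.76 and -0.65; edgeR adjusted p = 0.0752, 0.103, 0.0798 and 0.119). Rela, the NF-κB subunit p65, was higher by 0.80 ± 0.083 SE. Klf15, a glucocorticoid target that can induce both ligases, was at 13.5 ± 1.32 CPM in control and 14.5 ± 3.94 in hypoxia (SD, n = 3) and was not called. The comparison of hypoxia + rSRGN with control had 3 lower and 1 higher (median -0.084), and against hypoxia Myocd alone was called, higher by 0.67 ± 0.13 SE (edgeR adjusted p = 0.00134; median 0.14). Without hypoxia library 3 Myocd was at 0.58, under the fold limit, and without hypoxia library 2 Mef2a was called as well, at 0.63.

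Beside Sesn3, 10 sestrin and GATOR genes were tested, with 3 called lower and 1 higher in hypoxia (median -0.26). Sesn1, like Sesn3 a known FOXO target, was lower by a similar amount (-1.78 ± 0.11 SE, from 56.1 ± 2.80 to 16.3 ± 2.44 CPM, SD, n = 3), whereas Sesn2, which p53 and ATF4 induce, differed by 0.28 ± 0.11 SE and was not called. Mios and Depdc5 were lower (-1.16 ± 0.12 SE and -0.77 ± 0.12 SE) and Sec13, also a coat protein, higher (0.89 ± 0.080 SE). Cultures with rSRGN had 4 lower and 1 higher than control (median -0.49); against hypoxia edgeR called 0 of 10 (median -0.14), DESeq2 also 0, and 4 had an unadjusted p under 0.05.

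Beside Cited2, 7 HIF subunits and oxygen-sensing genes were tested, and 3 were called lower in hypoxia (median -0.56); edgeR and DESeq2 called 0 higher, and 0 were higher at an unadjusted p under 0.05. They were Hif1an, the asparaginyl hydroxylase that blocks HIF binding to CBP and p300 (-2.02 ± 0.089 SE), Hif1a (-1.53 ± 0.085 SE, from 341 ± 23.3 to 118 ± 15.2 CPM, SD, n = 3) and Egln1 (-0.82 ± 0.091 SE). Egln3, a known HIF target, was at 27.4 ± 20.3 CPM in control and 20.9 ± 2.33 in hypoxia (SD, n = 3), with overlap and a wide spread in control, and was not called; without control library 1 it was called lower (-0.81, edgeR adjusted p = 0.00217). Again 3 were lower in hypoxia + rSRGN than in control (median -0.44). Against hypoxia edgeR called 0 of 7 (median 0.14), DESeq2 also 0, and 3 had an unadjusted p under 0.05.

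The genes with the pattern most like a given one were found by the root mean square (RMS) difference, over the 9 libraries, between log2 CPM values centred on each gene's mean, among 14256 candidates with a mean of at least 1 CPM. For Trim63 they were Popdc2, Irx5 and Ddc (RMS 0.158, 0.162 and 0.162 log2 units), and for Fbxo32 they were Grb14, Ccdc85c and Usp28 (0.103, 0.119 and 0.123). For Foxo3 they were Ap5m1, Micall1 and Bod1l (0.0472, 0.0743 and 0.0749), and for Foxo1 Gtf2a1, Zc3h12c and Vcpip1 (0.0848, 0.0875 and 0.0915). None of these was another of the 10 genes. Cited2 was most like Igf2bp2, Twist1 and Pabpc1 (0.069, 0.0781 and 0.0855), and Sesn3 most like Setd7, Magi1 and Zadh2 (0.0492, 0.0638 and 0.0718).

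Promoter sequences of RefSeq (GRCm38.p6, from 250 bases before to 50 after each RefSeq start) were matched by symbol for 7 of the 10 genes: Foxo1, Foxo3, Trim63, Trim54, Fbxo30, Cited2 and Sesn3. The others are Foxo4, Fbxo32 and Trim55. RefSeq starts can differ from the gene starts given above. The 250 upstream bases of Sesn3 (chr9:14276051-14276300) and Fbxo30 (chr10:11281337-11281586) lie inside those genes as given above. Those of Foxo1, Foxo3 and Cited2 overlap their genes in part. For Sesn3 and Fbxo30 the search did not reach the bases before the starts given above. The promoter sequences were searched on both strands for the FOXO core GTAAACA, held by 3.65% of the 32851 promoters in the table, and for the hypoxia response element core ACGTG, held by 19.6%. The FOXO core was found in Trim63 alone and the hypoxia core in Cited2 alone of the 7, so their 250 bases upstream of the RefSeq start are shown. Trim63 was called lower and Cited2 higher in hypoxia. Foxo3, Trim54 and Sesn3, also called lower, held neither core in their windows. In Trim63 (chr4:134314870-134315119, plus strand) the capitals mark the FOXO core, which reads on the opposite strand and has its first base at -194 from the start. In Cited2 (chr10:17722978-17723227, plus strand) they mark CACGTG, a single stretch that reads the same on both strands. It therefore gives overlapping matches to ACGTG, and these are not separate sites. The first bases of the overlapping matches are at -153 and -152 from the RefSeq start. A match of letters does not show binding.
Trim63: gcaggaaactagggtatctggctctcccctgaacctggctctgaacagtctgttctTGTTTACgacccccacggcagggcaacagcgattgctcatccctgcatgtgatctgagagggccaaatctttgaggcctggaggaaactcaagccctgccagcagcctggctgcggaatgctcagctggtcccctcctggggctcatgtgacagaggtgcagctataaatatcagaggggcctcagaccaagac
Cited2: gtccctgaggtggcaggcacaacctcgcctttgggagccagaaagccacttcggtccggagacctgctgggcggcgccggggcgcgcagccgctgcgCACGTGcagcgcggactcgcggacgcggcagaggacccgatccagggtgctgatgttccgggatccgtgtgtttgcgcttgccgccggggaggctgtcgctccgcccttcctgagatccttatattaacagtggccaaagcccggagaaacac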

How the data were processed

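The deposited file holds the authors' fragment counts per gene, made with featureCounts 2.0.1 on GENCODE mouse release 25 with no strand option, per the file header; the submitters' processing notes name HISAT2 and mm10 for the alignment. Nothing before the counts was redone. The counts were tested with edgeR 4.0.16 (quasi-likelihood test, TMM scaling, filterByExpr) under R 4.3.3 with limma 3.58.1, and DESeq2 1.42.0 was the alternative. Log2 CPM used a prior count of 2. Exact permutation tests, levels and motif searches used Python 3.11.15 with numpy 2.4.6 and scipy 1.17.1, and figures used matplotlib 3.10.9. The edgeR fit and test were tried on simulated data, in which far fewer genes changed than were called against control here. The other steps were not tried on simulated data.

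Genes were matched by exact symbol, and list genes removed by filterByExpr were not tested. The 10 genes and the lists beside them were chosen with earlier results from these data known. Per-length levels divide CPM by the exon length in the deposited table. A comparison of protein sequences was not run, since no protein table was at hand. Single values of some list genes are not reported here.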

Additional observations from a re-analysis of the deposited data

How the results depend on the processing

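The fold changes of the 10 genes in the 3 comparisons were recomputed in 18 alternative fits, of which 2 (leaving out mitochondrial, rRNA and heat shock genes; thinning libraries to equal totals) were chosen after seeing the data. Of the values so obtained, 505 kept their sign and call, 18 reversed, 15 lost the call and 2 gained it. The cause of these shifts was not tested.

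In hypoxia + rSRGN against hypoxia the 525 called genes became 899 at an unadjusted p, 2790 with no fold change limit, and 321 to 699 in the leave-one-out fits (321 without hypoxia replicate 3, 354 without hypoxia + rSRGN replicate 2, 699 without hypoxia replicate 2). Of the 10 genes, 2 were called there; 5 were with no fold change limit, 1 with only the groups compared, 1 with thinned libraries and 1 to 3 in the leave-one-out fits. Against control, 8 of the 10 genes were called in hypoxia in every leave-one-out fit, and 8 to 9 in hypoxia + rSRGN. Trim54 between the hypoxic groups lost its call with only the groups compared (edgeR adjusted p = 0.158) and with thinned libraries (edgeR adjusted p = 0.063).

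Calls in the gene lists were recounted in the same fits. Between the hypoxic groups, without hypoxia replicate 3 the cardiomyocyte markers called higher went from 11 to 6, the other ligases from 3 to 2 (Trim72 lost), and the single calls of Pdk4, Prkaa2 and Myocd were lost; without hypoxia + rSRGN replicate 2 that of Pdk4 was lost, and without hypoxia replicate 2 Mef2a was added. Of the sestrin and GATOR genes there, 1 (Wdr24 in the leave-one-out fits) was called lower without hypoxia replicate 2, without hypoxia + rSRGN replicate 2 or with library size alone. In hypoxia relative to control, FOXO modifiers called higher went from 4 to 2 without control replicate 1 or with at least 1 count in all. The 1 higher ligase there, Cblb, went to 0 without hypoxia replicate 2. Macrophage markers called lower there went from 6 to 2 with at least 10 counts in every library, a filter that left 2 of them to be tested. The SCF core went from 0 to 1 there without control replicate 2 or 3, hypoxia replicate 3 or any hypoxia + rSRGN replicate. It did so too with DESeq2, RLE scaling, at least 1 count in all, at least 10 counts in every library, only the groups compared, or mitochondrial, rRNA and heat shock genes left out. For rSRGN cultures relative to control, upstream genes called higher went from 2 to 1 without control replicate 2, without hypoxia + rSRGN replicate 3 or with at least 1 count in all, and those called lower from 1 to 2 without hypoxia + rSRGN replicate 2.

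Small differences changed sign. Fbxo30 in hypoxia against control ranged from -0.025 (without hypoxia replicate 2) to 0.30 in the leave-one-out fits. Foxo4 between the hypoxic groups, -0.0068, was 0.022 with DESeq2, 0.022 with RLE scaling, 0.0050 with at least 1 count in all, 0.0064 with at least 10 counts in every library, 0.0094 with only the groups compared, 0.0034 with mitochondrial, rRNA and heat shock genes left out, and -0.068 to 0.037 in the leave-one-out fits. Cited2 there, 0.010, was -0.0070 with library size alone and -0.074 to 0.19 in the leave-one-out fits. Foxo1 in hypoxia + rSRGN against control ranged from -0.13 to 0.048. Relative to the cardiomyocyte markers, Trim54 between the hypoxic groups ranged from -0.35 to 0.054 and Trim55 from -0.059 to 0.056. The share of Trim54 between the hypoxic groups ranged from -0.273 to 1.38 points, and that of Foxo4 in hypoxia against control from -0.651 to 2.80 points.

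A fit with the replicate number as a replicate block called 8550 genes, 8 of the 10 among them, for hypoxia relative to control. For the effect of added rSRGN it called 495, with 2 of the 10, and for rSRGN cultures relative to control 8096, with 8 of the 10; there Fbxo30 lost its call (0.58, under the fold limit), as it did with at least 1 count in all (0.55). Deviations from the group means correlated between same-numbered libraries by -0.037 to 0.021 and between differently numbered ones by -0.048 to 0.046. Same-numbered libraries were thus no more alike than others by this measure. With 3 libraries per group it cannot show whether they shared an isolation, which the labels do not say.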
